A study of Mus musculus with 4 samples.

Results

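The smooth muscle contractile genes described here are Myh11, Tagln, Cnn1, Mylk, Myl9, Lmod1, Smtn and Myocd, 8 of the 32285 genes counted, taken by symbol from a list of genes known from smooth muscle. Their RNA was followed in 4 heart sections from ICR mice, measured with the 10x Visium assay, in which a tissue section lies on an array of barcoded spots and each spot takes up RNA from a small region that can hold several cells of different types. All 4 hearts were injured in the same way, with a cryoprobe held on the apex of the left ventricle for 5 seconds at postnatal day 1. Hearts were collected 1, 4, 7 and 14 days later (d1, d4, d7 and d14), at postnatal days 2, 5, 8 and 15, frozen fresh and cut at 10 µm. Each day had 1 section, none was from an uninjured heart, and days after injury and age of the animal cannot be told apart.

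Smooth muscle contracts when the kinase encoded by Mylk phosphorylates the regulatory light chain of myosin, encoded by Myl9, which lets the heavy chain encoded by Myh11 pull on actin. Tagln (transgelin), Cnn1 (calponin) and Smtn (smoothelin) encode proteins that bind the actin filaments, Lmod1 (leiomodin) promotes their assembly, and Myocd encodes myocardin, a partner of serum response factor that switches on many of these genes in smooth and heart muscle. In the heart several of these genes, but not all, mark the walls of coronary vessels and of the great vessels. Some, Tagln and Cnn1 among them, are also made by activated fibroblasts in scars.

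All 8 are protein-coding genes in the GENCODE annotation of GRCm38. Myh11 lies at chr16:14194535-14291372 and Mylk at chr16:34745210-35002420. Tagln lies at chr9:45929619-45936058 and Cnn1 at chr9:22099216-22109630, Smtn at chr11:3517523-3540612 and Myocd at chr11:65176561-65269989. Myl9 lies at chr2:156775420-156781658 and Lmod1 at chr1:135324807-135368065. The last 108 bases of Tagln overlap Pcsk7 on the opposite strand, and Tagln, Mylk, Lmod1 and Smtn overlap noncoding genes on the opposite strand, so their reads are separable only where the counting used strand.

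The CArG box is the motif that serum response factor binds, and myocardin acts through it, so the stretches before the starts of 2 members are shown, Myl9 with the motif and Cnn1 without it, the 2 of those matched whose whole-section levels differed most between days. RefSeq promoters (GRCm38.p6) were matched for 5 of the 8 genes, Cnn1, Mylk, Myl9, Lmod1 and Smtn. In the 200 bases that run from 250 to 51 before the start, read on both strands, the CArG box was found in 1 of the 5, Myl9, with its first base 161 bases before the start. It occurred in 380 of 32851 such windows (1.16%). Both stretches lie on the plus strand, Myl9 at chr2:156775214-156775413 and Cnn1 at chr9:22099003-22099202, and capitals mark the CArG box.
Myl9: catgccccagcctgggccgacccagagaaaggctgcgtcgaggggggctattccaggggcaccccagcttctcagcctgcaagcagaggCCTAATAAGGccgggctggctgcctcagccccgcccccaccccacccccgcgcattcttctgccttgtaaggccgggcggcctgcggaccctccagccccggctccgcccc
Cnn1: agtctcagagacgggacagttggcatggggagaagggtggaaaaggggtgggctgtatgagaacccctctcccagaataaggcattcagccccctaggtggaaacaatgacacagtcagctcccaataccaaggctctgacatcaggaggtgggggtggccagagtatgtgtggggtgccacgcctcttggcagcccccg
The Cnn1 stretch holds no match, which says only that these letters are not in this window.

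The sections held 445 to 1175 spots with at least 500 UMIs (unique molecular identifiers, counted as RNA molecules) and 3419864 to 6358894 UMIs in all. The median depth of a spot was 7810, 7998 and 8028 UMIs at d1, d4 and d7 and 3770 at d14. Levels are given as CPM, the UMIs of a gene per 1e+06 UMIs, after 8 haemoglobin and 13 mitochondrially encoded genes were left out of the total. Matrix-rich spots are the cluster of spots in each section with the largest share of UMIs from 20 extracellular matrix genes, found without using the 8 genes. They numbered 35, 59, 54 and 147 at d1, d4, d7 and d14, and the same cluster was also the richest in a list of injury genes on each day. At d1 the genes that led it included Gpnmb, Spp1 and Lgals3, genes of macrophages, at d4 Col12a1, Cthrc1 and Eln, at d7 Col12a1 together with Myh3, a myosin of developing skeletal muscle, and at d14 Gpnmb and Lgals3 again, with Cilp and C4b. Pairs of sections shared 248 to 754 barcodes, which on this array are positions and not cells.

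With 1 section per day there is no replicate and no test, and each ratio carries an exact 95% interval that covers counting error only. A gene is called higher or lower when its ratio reached 2 or fell to 0.5 or less, the interval excluded 1 and 1 of the sides reached 20 CPM. In spots, fewer cells of a type and less RNA per cell cannot be told apart. All comparisons with d1 share the d1 section.

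Over whole sections the 8 genes followed different courses. Tagln and Cnn1 were highest at d4, Myh11 and Lmod1 were highest at d14, and Myl9 had a smaller value on each later day. Smtn was about as high on d4, d7 and d14, and the intervals of Myocd included 1 in all comparisons of whole sections.

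Myh11, the smooth muscle myosin heavy chain, stood at 15.2, 24.1, 19.8 and 60.4 CPM in the d1, d4, d7 and d14 sections, from 49, 141, 110 and 260 UMIs. The d14 section stood apart from the other 3. Its level was 3.97-fold that of d1 (95% interval 2.92 to 5.51) and 3.06-fold that of d7 (2.44 to 3.86). Myl9, the light chain that the kinase acts on, ran the other way, with 974.4, 660.7, 420.9 and 175.4 CPM. It was 2.31-fold lower than at d1 at d7 (2.19 to 2.44) and 5.56-fold lower at d14 (5.13 to 6.02). Myh11 was thus highest in the section where Myl9 was lowest. Of 7 genes of atrial muscle and tissue, Myl7, the atrial light chain, stood at 45.6, 12.8, 1.44 and 1.39 CPM. Bmp10 gave 20, 2, 0 and 0 UMIs, and Sln 2, 2, 4 and 1. Myl4 (32.6, 95.6, 37.7 and 15.8 CPM) and Dkk3 (14.3, 46.4, 29.5 and 24.2) were highest at d4. Nr2f2 stood at 20.5, 27.2, 19.4 and 27.6 CPM. Nppa, which is also made by stressed ventricle, stood at 1353, 6751, 494 and 2544 CPM. All 7 together made up 0.147%, 0.693%, 0.0582% and 0.261% of UMIs in order of day, and Bmp10 was the only one at 0 in a whole section. The part of atrial tissue in the Myl9 values was not tested. Mylk, the kinase, lay between 23.3 and 44.8 CPM, and its ratios to d1 on the 3 later days were 1.60 (1.22 to 2.10), 1.07 (0.799 to 1.43) and 1.93 (1.47 to 2.55), none past 2-fold.

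Among the genes for actin-binding proteins, Tagln stood at 34.4, 137.3, 68.2 and 99.4 CPM at d1, d4, d7 and d14. The d4 section was highest and d1 lowest. Its ratios to d1 on the 3 later days were 3.99 (3.27 to 4.91), 1.98 (1.60 to 2.47) and 2.89 (2.34 to 3.59). The d14 call for Tagln was lost without the 5% of spots of each section that were richest in the 8 genes, where its log2 ratio was 0.84. Cnn1 had a narrower peak, at 11.2, 60.4, 8.3 and 8.1 CPM. It was 5.41-fold higher at d4 than at d1 (3.83 to 7.85) and 7.31-fold lower at d7 than at d4 (5.37 to 10.2), and at d7 and d14 it was no longer distinguishable from d1 at this depth. The ratio of Tagln at d7 to d4 was 0.497 (0.439 to 0.562), on the edge of the 2-fold limit, and 4 of 7 alternatives took it out of the called genes.

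Smtn stood at 197.9 CPM at d1 and at 277.8, 292.3 and 294.3 at the later days. Its ratios to d1 of 1.40 to 1.49 had intervals that excluded 1, and none was past 2-fold. Lmod1 and Myocd were sparse. Lmod1 gave 5, 18, 12 and 32 UMIs, with a ratio of 4.79 (1.85 to 15.8) at d14 against d1, but did not reach 20 CPM in any whole section. Myocd gave 32, 67, 55 and 39 UMIs, between 9.1 and 11.5 CPM.

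**Figure D1:**
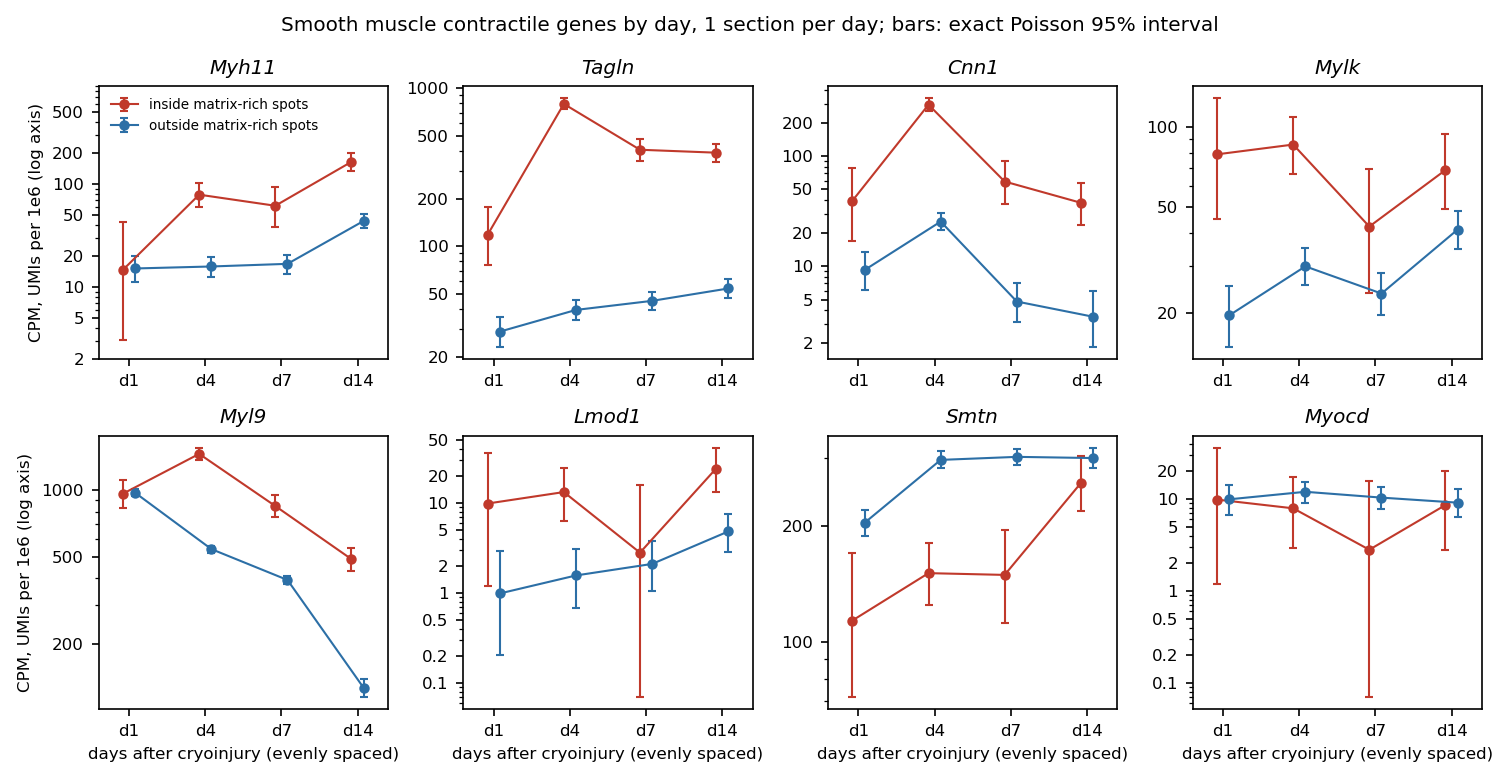
Level of each of the 8 genes in CPM (log axis) by days after cryoinjury (evenly spaced), in matrix-rich spots (red) and all other spots (blue) of 1 section per day, with exact Poisson 95% intervals. Tagln, Cnn1 and Myh11 are higher in red than in blue from d4 on, Myl9 parts from a shared level at d1, and Smtn is lower in red at d1, d4 and d7.

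Read against all genes, 2 of the 6 members that could be called were higher at d4 than at d1, where 4.69% of all genes tested were higher and 1.44% lower. At d7 none of 4 was higher and 1, Myl9, was lower, against 3.45% and 2.85% of all genes. At d14 Myh11 and Tagln were higher and Myl9 lower among 5, against 7.32% and 6.07%. From d4 to d7, Tagln and Cnn1 were lower among 6 (1.51% of all genes lower, 0.723% higher), and from d7 to d14 Myh11 was higher and Myl9 lower among 5 (5.04% and 3.51%). The median log2 ratio to d1 over the 8 genes was 0.67 at d4, 0.23 at d7 and 0.76 at d14, and that over all genes was 0.21, -0.00 and -0.04.

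Within each section, the matrix-rich spots were set against the other spots. Tagln and Cnn1 were called higher there on all 4 days, Myh11 and Myl9 at d4, d7 and d14, and Mylk at d1 and d4. Lmod1 was called at d14, the one day on which it reached 20 CPM inside. Smtn was called lower inside at d7, and the ratios of Smtn and of the sparse Myocd were below 1 on all 4 days.

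Tagln stood at 118.3, 795.3, 407.7 and 390.7 CPM inside the matrix-rich spots at d1, d4, d7 and d14, and at 28.8, 39.5, 45.1 and 54.0 outside. The inside value was above the outside value on each day. The ratios of inside to outside were 4.11 (2.50 to 6.52), 20.1 (17.1 to 23.7), 9.04 (7.30 to 11.2) and 7.24 (5.96 to 8.79). At d4, 75.0% of the Tagln UMIs of the section came from spots that gave 12.9% of all UMIs, and 57 of the 59 matrix-rich spots held at least 1 Tagln UMI. Cnn1 stood at 39.4, 294.6, 59.0 and 37.9 CPM inside and at 9.3, 25.5, 4.8 and 3.5 outside, with ratios of 4.26 (1.68 to 9.59), 11.5 (9.25 to 14.4), 12.3 (6.55 to 22.9) and 10.8 (5.23 to 23.4). The d1 call was lost with coarser clusters (Leiden resolution 0.5) and the d14 call without the 5% of spots richest in the 8 genes. Cnn1 was highest at d4 on both sides of the border. Its inside level at d14 was not distinguishable from that of d1, which rested on 8 UMIs, with a ratio of 0.960 (0.411 to 2.49).

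Myh11 differed from this pair at d1. Inside the matrix-rich spots it stood at 14.8, 79.3, 61.9 and 165.2 CPM, and outside at 15.2, 15.9, 16.9 and 44.0. At d1 only 3 of its 49 UMIs came from matrix-rich spots, and the ratio of 0.972 had an interval from 0.193 to 3.02. At d4, d7 and d14 the ratios were 4.98 (3.51 to 7.04), 3.66 (2.19 to 5.90) and 3.75 (2.89 to 4.86). The d7 value rested on few spots, since 19 of the 22 Myh11 UMIs inside came from 3 of 54 spots, and with a finer clustering (Leiden resolution 1.2) its log2 ratio was -1.14. Without the 5% of spots richest in the 8 genes, Myh11 was called on none of the 3 days.

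The course of Myl9 inside parted from its course outside. It stood at 966.5, 1465.1, 849.2 and 487.1 CPM inside and at 974.9, 541.1, 391.7 and 126.8 outside. At d1 the sides did not differ beyond counting error, with a ratio of 0.991 (0.853 to 1.15). At d4 the inside level was 1.52 times that of d1 (1.30 to 1.77) and the outside level 0.555 times (0.527 to 0.585). The 7 atrial genes, of which Nppa gave most UMIs, made up 0.386%, 1.96%, 0.361% and 1.00% of UMIs inside and 0.131%, 0.504%, 0.0376% and 0.145% outside, and their part was not tested. Myl9 was higher inside than outside by 2.71-fold at d4 (2.52 to 2.90), 2.17-fold at d7 (1.91 to 2.45) and 3.84-fold at d14 (3.30 to 4.46). The d7 call was lost in 3 alternatives, among them TMM scaling, which centres the bulk of genes. Outside, Myl9 was 7.69-fold lower at d14 than at d1 (6.98 to 8.49).

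Mylk stood at 78.9, 85.9, 42.2 and 68.8 CPM inside and at 19.5, 29.9, 23.6 and 41.1 outside. The inside values showed no call between days, and the outside value at d14 was 2.10-fold that of d1 (1.55 to 2.89), a call lost when spots were averaged instead of pooled and without the 5% of spots richest in the 8 genes. Its ratio of inside to outside on the 4 days was 4.04 (2.17 to 7.12), 2.88 (2.12 to 3.87), 1.79 (0.971 to 3.06) and 1.68 (1.15 to 2.39). The d4 call was lost without those spots, and whether the ratios differ between days was not tested.

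Smtn stood at 113.4, 150.6, 149.0 and 258.2 CPM inside and at 203.5, 296.7, 302.1 and 300.0 outside. Its ratios were 0.557 (0.351 to 0.844), 0.508 (0.416 to 0.614), 0.493 (0.368 to 0.649) and 0.861 (0.721 to 1.02). The first 3 lie close to the 2-fold limit, so that only d7 was called, and 3 alternatives took that call away while others added d1 and d4. Inside, Smtn was 2.28-fold higher at d14 than at d1 (1.46 to 3.70), a call lost without the 5% of spots richest in the 8 genes. The share of UMIs from 10 heart muscle cell genes, among them Tnnt2 and Myh6, was also lower inside, at 3.68%, 2.34%, 2.63% and 5.47% against 6.59%, 6.02%, 6.96% and 8.36% outside on the 4 days, and its part in the Smtn values was not tested.

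Lmod1 gave 2, 10, 1 and 14 UMIs inside and 3, 8, 11 and 18 outside, with ratios of 8.40 (2.99 to 24.5) at d4, below the minimum level, and 4.98 (2.29 to 10.6) at d14. Without the 5% of spots richest in the 8 genes the d14 log2 ratio of Lmod1 turned to -0.85. Myocd gave 2, 6, 1 and 5 UMIs inside, and no difference from outside was detectable at that depth.

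**Figure D2:**
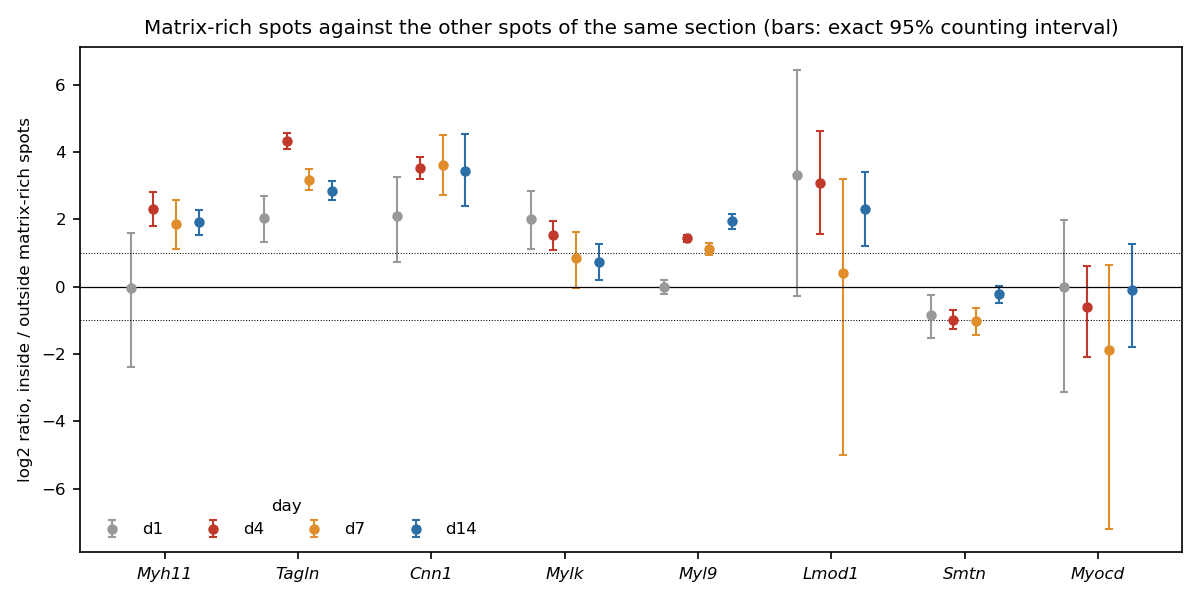
Log2 ratio of matrix-rich to other spots of the same section for each gene, coloured by day, with exact 95% counting intervals and dotted lines at 2-fold. Tagln and Cnn1 lie above 2-fold on all 4 days, Myl9 lies at 0 at d1 and above 2-fold later, and Smtn lies below 0 on all 4 days.

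At d1, 3 of 5 members that could be called were higher inside and none lower, against 15.7% and 4.31% of all genes tested. At d4 it was 5 of 6 higher (11.5% of all genes, 7.91% lower), at d7 4 of 6 higher and 1 lower (16.6% and 7.80%), and at d14 5 of 7 higher (11.9%, 1.76% lower). The median log2 ratio of inside to outside over members with at least 10 UMIs was -0.01, 1.92, 0.98 and 1.92 on the 4 days, against 0.24, 0.09, 0.26 and 0.22 over all genes. TMM scaling put the median of all genes at -0.09, -0.06, -0.07 and -0.06 in these 4 comparisons, and at 0.03 in place of 0.21 for whole sections at d4 against d1. No called member changed its direction under it.

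Counted over days within the matrix-rich spots, Myh11, Tagln and Cnn1 were higher at d4 than at d1 among 6 members (7.70% of all genes higher, 6.47% lower), Myh11 and Tagln at d7 among 6 (6.66% and 7.20%), and Myh11, Tagln and Smtn at d14 among 7 (8.07% and 9.39%). Tagln was 6.72-fold higher at d4 (4.47 to 10.6), 3.45-fold at d7 (2.23 to 5.55) and 3.30-fold at d14 (2.16 to 5.26), and the d7 and d14 calls were lost without the 5% of spots richest in the 8 genes. The Myh11 ratios of 5.36 (1.75 to 26.7), 4.18 (1.26 to 21.8) and 11.2 (3.71 to 55.1) share a d1 value of 3 UMIs, and none of them was called without those spots. The genes of skeletal muscle moved with the d7 region, where all 8 of a list that holds Mylpf, Tnnt3 and Myh3 were detected with 430 CPM in sum, against 4.93, 7.93 and 22.4 inside at d1, d4 and d14, where 7, 5 and 1 of the 8 were at 0. Without spots that held a UMI of these skeletal muscle genes, the d7 log2 ratios of inside to outside were 2.37 for Myh11, 3.54 for Tagln, 4.24 for Cnn1 and 1.27 for Myl9, each past the fold.

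Outside the matrix-rich spots, Cnn1 was 2.76-fold higher at d4 than at d1 (1.82 to 4.31). It was the 1 member of 5 called there (3.86% of all genes higher, 1.19% lower). Myl9 was 2.49-fold lower at d7 (2.35 to 2.64), again 1 of 4 (3.08% higher, 2.83% lower). At d14 Myh11 was 2.89-fold higher (2.07 to 4.11) and Mylk was higher. Myl9 was lower, at 126.8 CPM against 974.9 at d1, so that 3 of 5 were called (7.04% higher, 6.54% lower). The calls for Cnn1 at d4 and Myh11 at d14 were lost when spots were averaged instead of pooled.

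Across the clusters of each section, 5 at d1 and 7 on each later day, the matrix-rich cluster was the highest of all for Tagln and Cnn1 on every day. For Tagln the next cluster stood at 43.3, 67.9, 109 and 67.3 CPM. Myh11 was highest in the matrix-rich cluster at d4, d7 and d14, but at d1 its highest cluster was another, at 26.5 CPM, led by the vessel genes Plvap, Emcn and Vwf. Myl9 varied little among clusters at d1, from 872 to 1099, and more at d4, from 312 to 1465. The second highest Myl9 cluster at d4, at 948 CPM, held 55 spots led by Nppa, Nppb and Acta1, genes of stressed or fetal heart muscle. Smtn was lowest of all 7 clusters in the matrix-rich one at d4 and d7, with a range over clusters of 151 to 336 and 149 to 322.

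**Figure D3:**
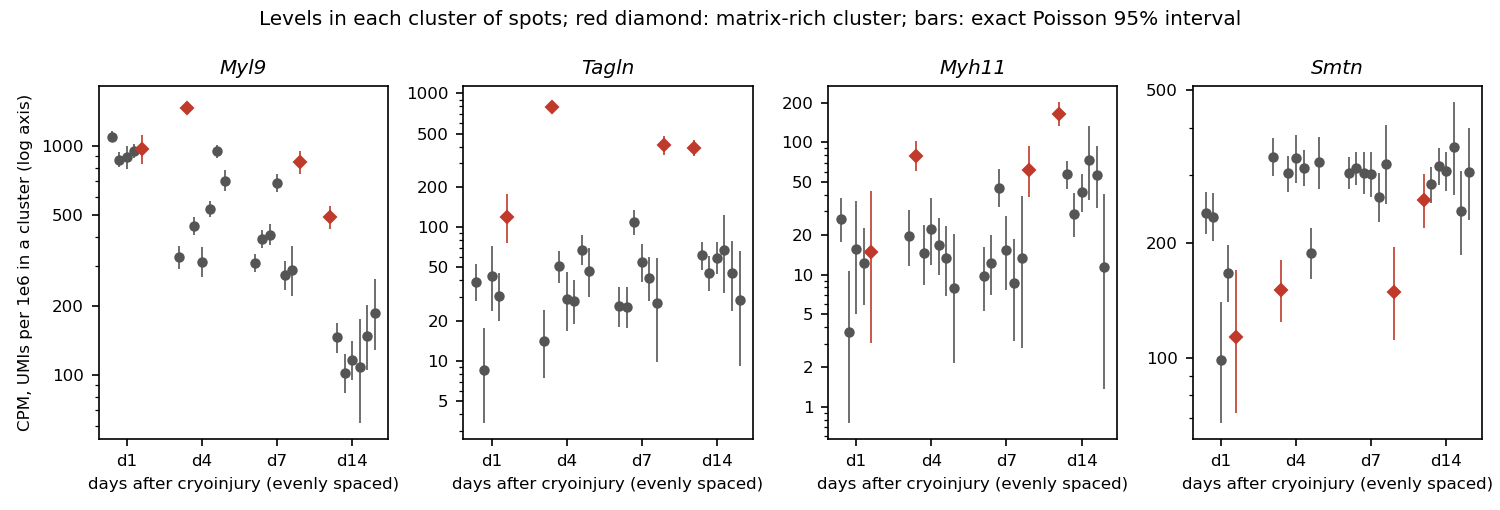
Level of Myl9, Tagln, Myh11 and Smtn in each cluster of spots by day (CPM, log axis, days evenly spaced), with exact Poisson 95% intervals and the matrix-rich cluster as a red diamond. The red diamond is on top for Tagln on all days and at the bottom for Smtn at d4 and d7.

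The genes differed in how many spots held them. Each spot was thinned to 2500 UMIs so that days could be compared, which left 402, 659, 769 and 960 spots and left out 43, 3, 5 and 215 shallower ones. Myl9 was found in 89.6%, 66.2%, 59.3% and 29.4% of thinned spots in order of day, and in 97.3%, 90.9%, 88.1% and 36.4% of the unthinned spots. Smtn was found in 35.6%, 53.0%, 52.4% of thinned spots at d1, d4 and d7 and in 480 of 960 at d14. Smtn was thus spread over the sections, and Myl9 over those of d1, d4 and d7. At d14 the 5% of spots with most Myl9 held 39.9% of its UMIs, against 14.2% at d1. Matrix-rich spots held 37.5% of the Myl9 UMIs at d14. Myh11 was found in 3.48%, 5.31%, 4.16% and 9.79% of thinned spots, Tagln in 6.47%, 13.5%, 12.9% and 13.6%, and Cnn1 in 3.23%, 7.44%, 1.69% and 1.98%. RNA can spread between neighbouring spots, and its part in these shares was not measured.

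Myh11 was concentrated in few spots, with 50% of its UMIs in 1.57%, 2.72%, 2.20% and 2.89% of spots and up to 11, 10, 13 and 16 UMIs in 1 spot. Spots with and without a thinned Myh11 UMI, 14, 35, 32 and 94 with one, were then set side by side as a description of where the other members lay, with comparison genes chosen after their values were seen. Tagln was 10.3-fold (4.43 to 21.9), 7.19-fold (5.10 to 9.99), 3.90-fold (2.33 to 6.23) and 8.25-fold (6.34 to 10.7) higher in spots with Myh11. Mylk was 2.52, 2.85, 8.43 and 3.11 times as high, with an interval that included 1 at d1. Cnn1 was 2.13, 4.11, 4.19 and 11.1 times as high, with intervals that included 1 at d1 and d7. Myl9 was 1.33 (0.958 to 1.81), 1.67 (1.31 to 2.11), 2.40 (1.87 to 3.04) and 3.21 (2.55 to 4.01) times as high. The ratios of Smtn, from 0.847 to 1.26, had intervals that included 1 on all 4 days. Among other genes, Acta2, smooth muscle actin, was 2.11, 3.67, 3.19 and 2.46 times as high in spots with Myh11, while Rgs5, a pericyte gene, had ratios of 1.42, 1.45, 1.01 and 1.08, with an interval that excluded 1 at d4 and included it on the other days. Eln, which encodes elastin, was 12.5 (9.47 to 16.4) times as high at d1 and 4.54 (3.98 to 5.16) times at d4. It was 1.02 (0.823 to 1.25) times as high at d7 and 2.62 (2.34 to 2.93) times at d14. At d4, 14 of the 35 spots with Myh11 were matrix-rich. Col1a1, a collagen gene of fibroblasts, was 1.04, 3.00, 1.21 and 1.51 times as high on the 4 days, with intervals that excluded 1 at d4 (2.59 to 3.46) and d14 (1.31 to 1.73). Tnnt2 ratios were 0.989, 0.736, 0.936 and 0.946 on the 4 days. For this gene of heart muscle cells the interval excluded 1 at d4 (0.674 to 0.802) and d14 (0.900 to 0.993). The part of these cells in the ratios was not tested.

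**Figure D4:**
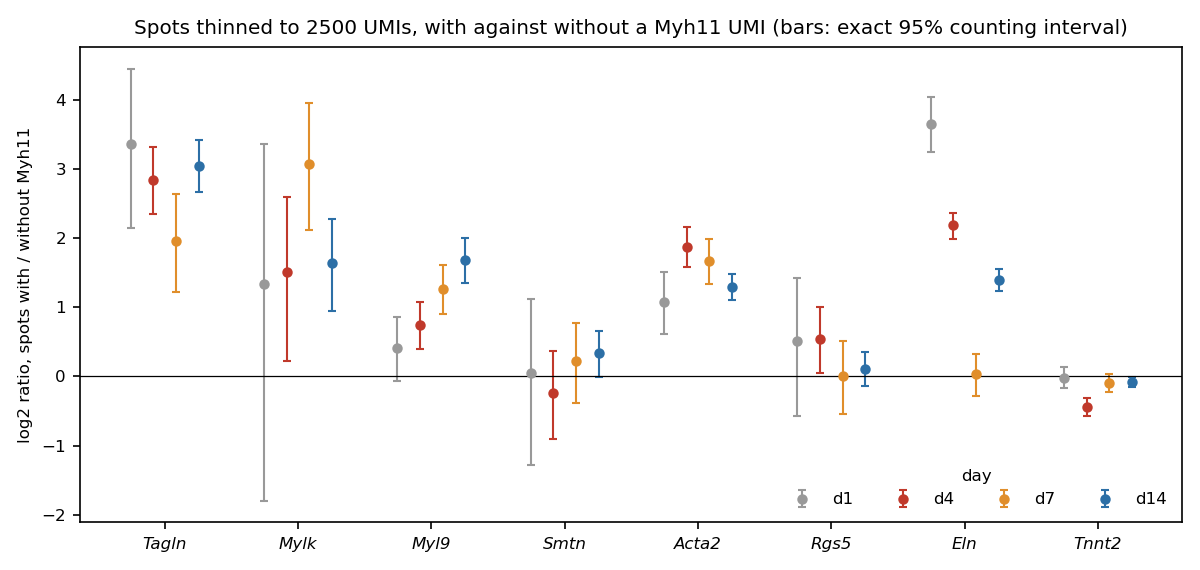
Log2 ratio of levels in thinned spots with a Myh11 UMI to those without, by gene and day, with exact 95% counting intervals. Tagln and Acta2 lie above 0 on all 4 days, Smtn lies near 0, and Eln ranges from 12.5-fold at d1 to 1.02-fold at d7.

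Across thinned spots the members were weakly related to each other, in counts that are sparse and share their library. The highest mean Spearman rho over the 4 sections was 0.18 for Tagln with Cnn1, and the next was 0.17 for Myh11 with Tagln. The lowest was -0.04 for Tagln with Smtn. Of 1485 genes with at least 100 thinned UMIs in each section, the 10 most like the sum of the 8 genes were Mgp (mean rho 0.20), Nppa (0.19), Acta2 (0.18), Eln (0.18), Bgn (0.14), Col1a2 (0.14), Col3a1 (0.13), Fbn1 (0.13), Fstl1 (0.13) and Postn (0.12). The sum follows mostly Myl9 (0.72) and Smtn (0.50), which gave most of its UMIs.

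Other genes of contractile filaments and their cytoskeleton, 18 in a list that holds Acta2, Tpm1 and Tpm2, were also compared. Of those that could be called, 8 of 14 were higher inside at d1 and 12 of 16 at d4. At d7 it was 10 of 16 and at d14 8 of 16. Of all genes tested, 15.7%, 11.5%, 16.6% and 11.9% were higher inside on the 4 days. Tpm1 was the 1 gene of the list called lower, at d7, where 7.80% of all genes were lower. The summed level of the list, most of it Tpm1, which heart muscle also uses, ran otherwise, at 8896, 9643, 6599 and 10010 CPM inside and 7779, 7211, 9573 and 11761 outside. Acta2 stood at 1100, 1688, 647 and 926 CPM inside and 625, 317, 338 and 533 outside, so it was past 2-fold at d4 only, at 5.33-fold (4.95 to 5.74). Actg2, the enteric smooth muscle actin, was 19.2-fold higher inside at d4 (13.0 to 29.1), and Tpm2, a tropomyosin, was 2.82-fold, 3.92-fold, 3.97-fold and 4.56-fold higher on the 4 days. Over whole sections 3 of 16 were higher than d1 at d4 (Actg2, Tpm4 and Itga8), none of 13 at d7 and 1 of 14 (Mustn1) at d14, against 4.69%, 3.45% and 7.32% of all genes. The list median log2 ratio of inside to outside was 1.19, 1.55, 1.13 and 1.30.

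Of 17 genes that control contraction, 2 of 12 that could be called were higher inside at d1 and 2 of 12 at d14. At d4 it was 5 of 14 with 2 lower, and at d7 4 of 13 with 1 lower. Of all genes tested, 15.7%, 11.5%, 16.6% and 11.9% were higher inside on the 4 days. Lower inside were 4.31%, 7.91%, 7.80% and 1.76%. The shares of the list higher at d1 and d14 and lower at d7 are near those of all genes. Myl6, a myosin light chain, stood at 1144, 1803, 1513 and 1083 CPM inside and 523, 736, 716 and 569 outside. Gucy1a1 and Gucy1b1, the subunits of the nitric oxide receptor that relaxes smooth muscle, were both higher inside at d4 (3.36-fold and 3.05-fold), d7 (4.03-fold and 4.02-fold) and d14 (2.24-fold and 2.02-fold). Ppp1r14a, an inhibitor of the phosphatase that opposes the Mylk kinase, was higher inside at d4 (4.30-fold) and d7 (2.21-fold). Cacna1c, a calcium channel that heart muscle also uses, was lower inside at d4, with a ratio of 0.202 (0.126 to 0.309). Of 12 regulators of smooth muscle genes, 1 of 10 was higher inside at d1, 4 of 11 at d4, 3 of 10 at d7 with 1 lower, and 4 of 12 at d14, against the same shares of all genes. Csrp2 (3.27-fold, 4.32-fold and 2.85-fold) and the receptor gene Notch2 (2.60-fold, 2.81-fold and 2.18-fold) were higher inside at d4, d7 and d14. Jag1 was higher at d4, Mrtfb at d7, Tgfb1i1 at d1 and d14, and Heyl at d4 (3.55-fold) and d14 (2.10-fold). Heyl, a target of Notch signalling, was higher over whole sections at d4, d7 and d14 than at d1 (3.31-fold, 2.91-fold and 2.67-fold). In these comparisons 4.69%, 3.45% and 7.32% of all genes were higher and 1.44%, 2.85% and 6.07% lower. Over whole sections Klf4 stood at 36.6, 35.2, 55.3 and 75.0 CPM on the 4 days. Gata6 went the other way, at 165.6, 106.0, 93.4 and 77.1. The 12 regulators summed to 602, 699, 594 and 523 CPM. Srf, the partner of myocardin, was called once, with a ratio of inside to outside of 0.495 (0.211 to 0.991) at d7.

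Pericytes wrap small vessels. Of 10 of their genes listed, 2 of 7 were higher and 1 lower inside at d1, 1 of 8 higher and 4 lower at d4, none of 8 higher and 5 lower at d7, and none of 9 was called at d14. Of all genes tested, 15.7%, 11.5%, 16.6% and 11.9% were higher inside on the 4 days and 4.31%, 7.91%, 7.80% and 1.76% lower. Over whole sections 2 of 8 were higher than d1 at d4, 2 of 8 at d7 and 5 of 9 at d14, with none lower. In these whole-section comparisons 4.69%, 3.45% and 7.32% of all genes were higher and 1.44%, 2.85% and 6.07% lower. Rgs5 stood at 179, 343, 409 and 620 CPM over whole sections, higher than at d1 by 2.29-fold at d7 (2.09 to 2.51) and 3.47-fold at d14 (3.17 to 3.81). Inside it stood at 217, 270, 191 and 544 and outside at 176, 354, 424 and 632. Abcc9 was lower inside at d1, d4 and d7, with ratios of 0.398, 0.333 and 0.450. Its whole-section level did not run like that of Rgs5, at 167, 152, 157 and 179 CPM. Higher inside were Pdgfrb at d1 (143 CPM against 44.7 outside) and Cspg4 at d1 (98.6 against 48.0) and d4 (104 against 51.7).

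Elastic fibres lie in the walls of large vessels and in matrix. Of the 5 genes listed for them, those that could be called were compared, and 2 of 4 were higher inside at d1, 4 of 5 at d4, 5 of 5 at d7 and 5 of 5 at d14, against the same 15.7%, 11.5%, 16.6% and 11.9% of all genes. Eln stood at 202, 5421, 12858 and 2872 CPM inside and 257, 353, 311 and 422 outside. Its highest inside value was at d7, when Myh11, Tagln and Cnn1 were all at lower levels than at their own highest day. Of 7 genes of arterial endothelium, Gja4, a gap junction gene, was higher inside at d1, d4 and d7 (3.34-fold, 2.27-fold and 2.29-fold). Of all genes 15.7%, 11.5% and 16.6% were higher there. Hey1 was lower inside on all 4 days, at 4.93, 9.25, 8.44 and 8.61 CPM against 10.9, 13.6, 15.3 and 24.98. Sox17 stood at 29.6, 5.28, 8.44 and 32.7 inside and 17.2, 14.0, 16.5 and 28.5 outside. Gja5 stood at 9.86, 18.5, 11.2 and 17.2 inside and 20.2, 12.2, 7.86 and 9.94 outside. The 7 genes summed to 123, 156, 152 and 208 inside and 104, 112, 101 and 173 outside. Gja4, Hey1 and Sema3g were higher at d14 than at d1 over whole sections (2.92-fold, 2.16-fold and 2.56-fold). In that comparison 7.32% of all genes were higher and 6.07% lower. Sox17 went from 17.99 CPM at d1 to 29.04 at d14 over whole sections, and Efnb2 from 21.4 to 22.8. Gja5 went from 19.5 to 10.9 and Bmx from 3.1 to 1.16. The summed level of 10 fibroblast genes was 1026, 3992, 6895 and 8151 CPM inside and 818, 1407, 1635 and 3847 outside, and its part in the values of Tagln and Cnn1 was not tested.

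**Figure D5:**
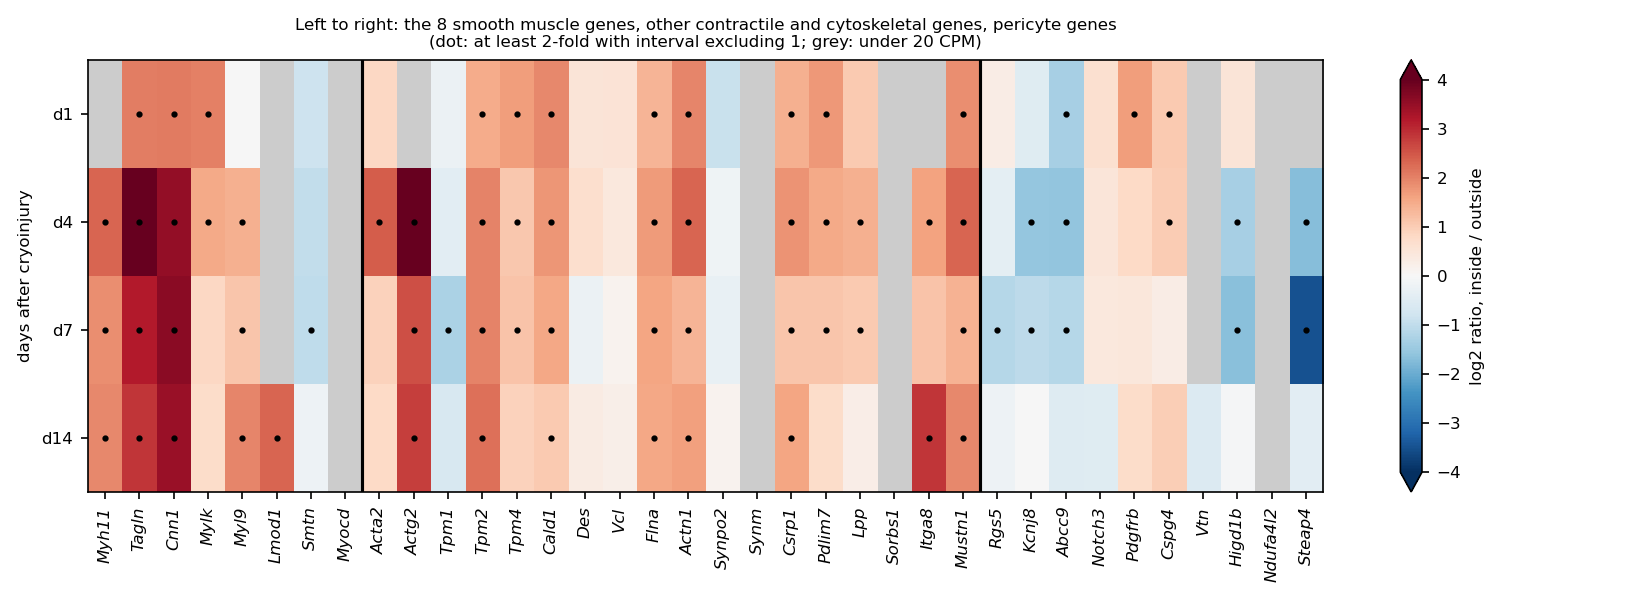
Log2 ratio of matrix-rich to other spots by day for the 8 genes, 18 other contractile and cytoskeletal genes and 10 pericyte genes, with a dot where a gene was past 2-fold and grey where it was under 20 CPM. Most dots among the contractile genes are red, with Smtn and Tpm1 lower at d7, and 4 of 5 dots at d4 and 5 of 5 at d7 among the pericyte genes are blue.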

How the data were processed

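The deposited files hold raw UMI counts, 1 value for each gene in each spot. Per the file headers they come from Space Ranger 1.3.0. The submitters' processing notes name the build mm10 and, without a role, Seurat 4.1.1. How spots were selected before deposit is not given in the sources used here, and neither images nor positions of spots were used. Spots with at least 500 UMIs were kept and their counts summed. The total left out 8 haemoglobin and 13 mitochondrially encoded genes. Spots were clustered per section (scanpy 1.11.5, 2000 variable genes, 15 components, 15 neighbours, Leiden resolution 0.8), without 77 listed genes, among them the 8 described, and the matrix-rich cluster needed at least 10 spots. Levels carry exact Poisson and ratios exact conditional binomial (Clopper-Pearson) 95% intervals (scipy 1.17.1), and a median took genes with at least 10 UMIs over both sides. The ratio and its calling rule were checked on simulated data.

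The 8 genes and all lists were chosen with earlier results of these data known. Named were the 8 genes throughout and the 10 genes most like the summed 8 across spots. From each other list mainly the 4 with the most UMIs and genes past the fold were named. Not every gene past the fold is named. Alternatives were other scalings (all genes in the total, TMM from edgeR 4.0.16), spot minimums (none, 1500 UMIs), gene minimums (none, 50 CPM), means over spots, matrix-rich spots chosen otherwise (the top 10%, an injury list, Leiden resolutions 0.5 and 1.2), and leaving out the 5% of spots richest in the 8 genes or spots with a skeletal muscle UMI.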

Additional observations from a re-analysis of the deposited data

Results flagged for a closer look

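The level of Myl9 at d4 against d1 moved in opposite directions in the parts of the sections, with a ratio of 1.52 in matrix-rich spots (966.5 to 1465.1 CPM) and 0.555 in all other spots (974.9 to 541.1). Each day had 1 section, so the difference between these ratios was not tested.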

How the results depend on the processing

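No paired analysis was possible because each day had 1 section and spots are not replicates. Of 120 values of single members, 41 were past the fold, 21 of these under every alternative run for them and 20 not under at least 1, and 14 others passed under at least 1. Leaving out the 5% of spots richest in the 8 genes removes by construction spots high in them, and the median log2 ratio of inside to outside was then 0.89, 0.99 and 0.32 at d1, d4 and d14 and that of d14 to d1 inside turned from 1.19 to -1.45. Under it Tagln inside at d14 against d1 turned to -0.26 and Lmod1 inside against outside at d14 to -0.85. With Leiden resolution 1.2 Myh11 turned to -0.69 inside at d7 against d1 and to -1.14 inside against outside at d7, and with 0.5 the median inside at d4 against d1 was 1.61 (0.60 before). The number of all genes past the fold moved with the gene minimum. At a minimum of 50 CPM and with none, the whole-section counts were 190 and 1395 for d4 against d1 (446 at 20 CPM), 194 and 1208 for d7 (433), 486 and 2229 for d14 (935), 64 and 852 for d7 against d4 (161), and 305 and 1640 for d14 against d7 (587). Outside, the d4 counts were 145 and 1184 (361), the d7 counts 183 and 1188 (399) and the d14 counts 489 and 2198 (937). For inside against outside, 50 CPM gave 982, 897, 1106 and 442 on the 4 days (1496, 1533, 1819 and 1000). Means over spots, which carry no interval, gave inside counts of 2383, 2657 and 2703 on the later days (1137, 1086 and 1393) and 2405 for inside against outside at d1, where resolution 0.5 gave 893. TMM scaling moved the share of calls that were higher from 76.5% to 57.1% for whole sections at d4, from 32.3% to 61.9% for d7 against d4, from 76.5% to 54.0% outside at d4, and from 78.5%, 59.2%, 68.1% and 87.1% to 46.3%, 45.1%, 41.5% and 55.3% for inside against outside. With all genes in the total that share was 44.0% for whole sections at d7 (54.7%), 19.9% for d7 against d4 (32.3%) and 41.4% outside at d7 (52.1%). Spots at d14 were the shallowest, and Lmod1 and Myocd were limited by counts of 1 to 14 UMIs inside.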
